A study of Mus musculus with 9 samples.

Results

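The 10 genes described here are imprinted genes of 4 mouse loci, 5 of them noncoding and 5 protein-coding. They were listed by name and selected on their TMM-scaled levels in all 9 libraries, with noncoding set against coding genes, so their own levels are given as a description without a test. All 10 were found among the 54446 genes counted, and all 10 were among the 17355 that passed the filter on low counts. The noncoding members are Meg3, Rian and Mirg of the Dlk1-Meg3 locus on chromosome 12, Snhg14 of the Snrpn-Ube3a locus on chromosome 7 and Kcnq1ot1 of the Kcnq1 locus on chromosome 7. The coding members are Snrpn, Ube3a, Ndn and Magel2 of the Snrpn-Ube3a locus and Peg3 of its own locus, also on chromosome 7.

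The libraries hold polyadenylated RNA from the brains of adult males at 3 to 4 months of age. The groups were mice heterozygous for a Tfap2a allele (Tfap2a+/-), mice labelled heterozygous for a Tfap2b allele (Tfap2b+/-) and wild-type mice of the B6N strain, with 3 libraries each. Tfap2a and Tfap2b encode the DNA-binding transcription factors AP-2 alpha and AP-2 beta, and neither the construction of the alleles nor the part of the brain taken is given in the sources used here. Nothing in the labels says that the 3 libraries of a genotype came from separate animals, so the spread between them may not measure the spread between animals.

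Imprinted genes are transcribed mainly from the copy inherited from one parent. The choice is set by DNA methylation laid down in the germ line, and imprinted genes often lie in clusters in which a long noncoding RNA is made from one parental copy and the protein-coding neighbours from the other. At the Dlk1-Meg3 locus the noncoding RNAs come from the maternal copy and Dlk1 and Rtl1 from the paternal one. In neurons the paternal copy makes Snhg14, a very long transcript that runs from Snrpn through arrays of small nucleolar RNAs (snoRNAs) and across Ube3a on the other strand, and Ube3a is there made from the maternal copy. Kcnq1ot1 is a paternal transcript antisense to Kcnq1. The counts do not separate the parental copies.

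The sequences at the starts of these genes and of the small RNAs they carry show what the loci hold. RefSeq windows on GRCm38.p6, from 250 bases before to 50 bases after a start, were found for all 10 members, with 14 windows because some genes have several starts. Each was searched on both strands for GCCNNNGGC, the palindrome that AP-2 proteins bind, for TGCCGC, bound by the imprint-protecting zinc finger protein ZFP57, and for GCCATNTT, a core of the YY1 motif. Of all 32851 windows of that length, 16.6% held the AP-2 motif, 11.6% the ZFP57 motif and 6.05% the YY1 motif. The Meg3 window (chr12:109540746-109541045, plus strand) held 1 AP-2 motif and 1 ZFP57 motif. The Ube3a window (chr7:59228500-59228799, plus strand) held 2 AP-2 motifs and 1 YY1 motif, and 29 CpG, against a median of 7 per window. The Kcnq1ot1 window (chr7:143296498-143296797, minus strand) held none of the 3 and is printed because this RNA showed the largest log2 fold among the noncoding members. Of the windows at the 4 starts of Snrpn, the one at chr7:60005150-60005449, minus strand, held 1 ZFP57 motif. The other Snrpn windows, the second Meg3 window and the windows of Rian, Mirg, Snhg14, Ndn, Magel2 and Peg3 held none of the 3 motifs. Most of the 14 windows thus lacked the AP-2 motif, as did most of all windows, and no excess at these genes is read from the matches. No motif overlapped another in these windows, and a match describes letters and not a bound site. The sequences run 5′ to 3′ on the strand of the gene, with the motifs in capitals.
Meg3: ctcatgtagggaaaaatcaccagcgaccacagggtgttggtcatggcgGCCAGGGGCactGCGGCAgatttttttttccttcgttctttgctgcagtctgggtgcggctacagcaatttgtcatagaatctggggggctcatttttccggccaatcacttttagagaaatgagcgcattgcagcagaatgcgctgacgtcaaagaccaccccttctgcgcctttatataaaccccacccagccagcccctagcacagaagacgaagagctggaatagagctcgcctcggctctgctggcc
Ube3a: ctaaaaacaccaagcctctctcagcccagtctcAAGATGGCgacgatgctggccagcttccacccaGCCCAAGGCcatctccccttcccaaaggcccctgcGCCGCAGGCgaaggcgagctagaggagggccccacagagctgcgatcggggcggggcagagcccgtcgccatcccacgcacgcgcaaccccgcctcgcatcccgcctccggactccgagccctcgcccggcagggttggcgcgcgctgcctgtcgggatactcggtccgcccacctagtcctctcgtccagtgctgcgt
Snrpn: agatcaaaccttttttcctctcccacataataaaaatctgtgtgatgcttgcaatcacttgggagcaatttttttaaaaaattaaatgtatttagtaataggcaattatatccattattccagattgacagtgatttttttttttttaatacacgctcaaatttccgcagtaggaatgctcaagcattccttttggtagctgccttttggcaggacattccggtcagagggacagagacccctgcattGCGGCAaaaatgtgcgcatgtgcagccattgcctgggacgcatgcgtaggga
Kcnq1ot1: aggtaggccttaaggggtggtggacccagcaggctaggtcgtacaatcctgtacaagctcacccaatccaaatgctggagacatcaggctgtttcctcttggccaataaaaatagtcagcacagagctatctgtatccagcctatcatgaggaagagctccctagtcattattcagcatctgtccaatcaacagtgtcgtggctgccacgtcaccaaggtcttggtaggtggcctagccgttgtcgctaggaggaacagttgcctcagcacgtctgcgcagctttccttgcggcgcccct

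The maternal transcripts of chromosome 12 and the paternal Snhg14 of chromosome 7 are hosts of small RNAs. GENCODE M21 places 2 miRNA genes within Meg3, 4 miRNA and 13 snoRNA genes within Rian, 14 miRNA genes within Mirg and 208 snoRNA genes within Snhg14. Mature sequences from RefSeq (GRCm38.p6) are shown for 5 miRNAs, 1 within Meg3 and 4 within Mirg, with the seed, bases 2 to 8, in capitals. No seed recurs among the 9 mature miRNAs of these 5 hairpins.
mmu-miR-770-5p (Meg3, chr12:109563710-109563731): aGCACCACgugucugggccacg
mmu-miR-134-5p (Mirg, chr12:109734145-109734166): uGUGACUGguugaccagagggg
mmu-miR-485-3p (Mirg, chr12:109734946-109734967): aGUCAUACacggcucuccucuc
mmu-miR-377-3p (Mirg, chr12:109740553-109740574): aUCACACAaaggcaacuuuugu
mmu-miR-410-3p (Mirg, chr12:109743764-109743784): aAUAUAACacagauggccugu
These libraries measure the polyadenylated host RNA and not the mature miRNAs or snoRNAs.

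Counts in genes ran from 22496880 to 28517579 in Tfap2a+/-, from 26216100 to 29214975 in the libraries labelled as Tfap2b+/- and from 21946800 to 27051802 in wild type. Levels below are in CPM, counts divided by the TMM-scaled library size, and folds are given as log2 values ± their standard error (SE). Tfap2a was at 0.445, 0.223 and 0.460 CPM in Tfap2a+/-, against 0.610, 0.263 and 0.733 CPM in wild type. Tfap2b went against its label: it was at 32.9, 8.89 and 5.80 CPM in the libraries labelled as Tfap2b+/-, against 2.25, 0.714 and 14.8 CPM in wild type (a log2 fold of 1.42 ± 0.98, with an edgeR adjusted p = 0.60). Directions for that group therefore refer to the libraries labelled as Tfap2b+/-. All 10 neuronal markers were detected, with summed levels of 8357 to 10744, 7872 to 9169 and 9255 to 10450 CPM in Tfap2a+/-, in the libraries labelled as Tfap2b+/- and in wild type. Some libraries stood apart from others of their genotype. The summed choroid plexus markers were 909 CPM in Tfap2a+/- library 1 and 3256 CPM in wild-type library 2, and at most 309.7 CPM elsewhere, with all 10 detected. The summed striatal markers were 2629 and 2306 CPM in Tfap2a+/- libraries 1 and 2 and 363 to 971 CPM in the other 7 libraries. The summed oligodendrocyte markers were 2269 CPM in Tfap2a+/- library 3 and 2701 CPM in library 3 labelled as Tfap2b+/-, and 4439 to 7378 CPM elsewhere. The summed hindbrain and raphe markers were 74.9 CPM in library 1 labelled as Tfap2b+/- and 4.92 to 7.70 CPM elsewhere, with Hoxa2, Hoxa3 and Hoxb5 at 0 in all 9 libraries. In bulk tissue, more cells of a type and more RNA per cell cannot be told apart.

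**Figure D1:**
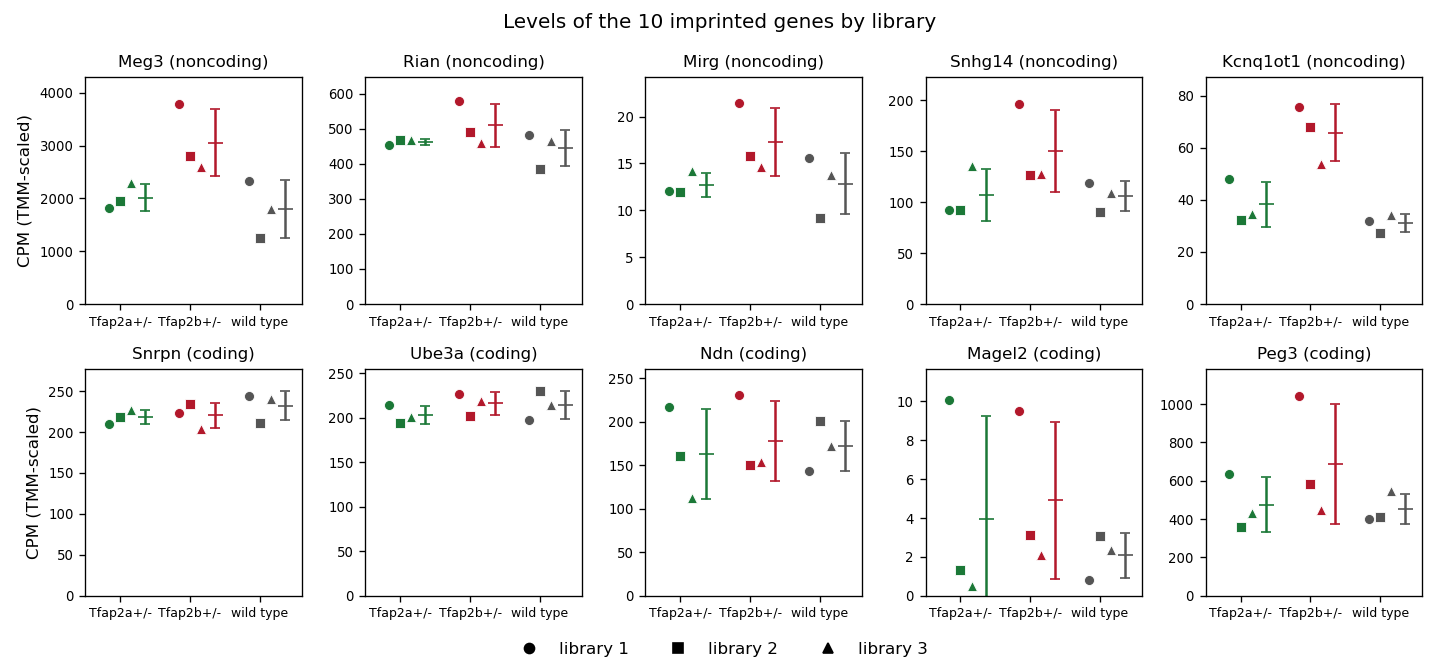
TMM-scaled CPM of each member in each library, with 1 panel per gene and linear axes that start at 0. Points are libraries and the bar beside them is the mean ± SD of 3, for Tfap2a+/-, the libraries labelled as Tfap2b+/- and wild type from left to right. Meg3, Snhg14 and Kcnq1ot1 do not overlap between the libraries labelled as Tfap2b+/- and wild type, and no coding member separates them.

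Meg3 (ENSMUSG00000021268.17, chromosome 12, 109541001 to 109571726, plus strand) is a nuclear long noncoding RNA, known to bind chromatin regulators and abundant in neurons. It was at 1811, 1943 and 2293 CPM in Tfap2a+/-, at 3782, 2803 and 2588 CPM in the libraries labelled as Tfap2b+/- and at 2339, 1242 and 1798 CPM in wild type. All 3 libraries labelled as Tfap2b+/- lay above all 6 others, while Tfap2a+/- overlapped wild type. The group means were 2016 ± 249 CPM in Tfap2a+/-, 3058 ± 637 CPM in the libraries labelled as Tfap2b+/- and 1793 ± 549 CPM in wild type (SD, n = 3). The log2 fold over wild type was 0.17 ± 0.24 in Tfap2a+/- and 0.77 ± 0.24 in the libraries labelled as Tfap2b+/- (SE). Between the libraries labelled as Tfap2b+/- and Tfap2a+/- it was 0.60 ± 0.24. Between its highest and its lowest library Meg3 differed 3.05-fold, and both extremes were libraries that stood apart in regional markers.

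Rian (ENSMUSG00000097451.10, chromosome 12, 109603940 to 109661716, plus strand) lies downstream of Meg3 and hosts a snoRNA cluster. It stood at 452, 466 and 466 CPM in Tfap2a+/-, at 579, 490.5 and 458 CPM in the libraries labelled as Tfap2b+/- and at 483, 386 and 464 CPM in wild type. The 3 groups overlapped. Its log2 fold over wild type was 0.05 ± 0.12 in Tfap2a+/- and 0.20 ± 0.12 in the libraries labelled as Tfap2b+/-. The ratio of Meg3 to Rian CPM within a library was 4.01 to 4.92 in Tfap2a+/-, 5.65 to 6.54 in the libraries labelled as Tfap2b+/- and 3.22 to 4.84 in wild type, so these neighbouring RNAs did not keep 1 ratio.

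Mirg (ENSMUSG00000097391.8, chromosome 12, 109729764 to 109749460, plus strand) is the host of the second miRNA cluster, including miR-134, miR-485, miR-377 and miR-410 shown above. It was much less abundant, at 12.04, 11.97 and 14.2 CPM in Tfap2a+/-, at 21.4, 15.8 and 14.7 CPM in the libraries labelled as Tfap2b+/- and at 15.5, 9.18 and 13.8 CPM in wild type. The libraries labelled as Tfap2b+/- lay above Tfap2a+/- without overlap but overlapped wild type. Its log2 folds over wild type were -0.01 ± 0.21 in Tfap2a+/- and 0.43 ± 0.21 in the libraries labelled as Tfap2b+/-.

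Snhg14 (ENSMUSG00000100826.6, chromosome 7, 59307924 to 59975759, minus strand) is the snoRNA host that extends antisense to Ube3a. It was at 92.7, 92.1 and 136 CPM in Tfap2a+/-, at 197, 127 and 128 CPM in the libraries labelled as Tfap2b+/- and at 119, 90.2 and 109 CPM in wild type. The libraries labelled as Tfap2b+/- all lay above wild type but overlapped Tfap2a+/-, whose library 3 was above 2 of them. The log2 fold over wild type was 0.01 ± 0.22 in Tfap2a+/- and 0.50 ± 0.22 in the libraries labelled as Tfap2b+/-.

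Kcnq1ot1 (ENSMUSG00000101609.2, chromosome 7, 143203458 to 143296549, minus strand) is an unspliced RNA of 93092 annotated exonic bases that is known in mouse to silence neighbouring genes on the paternal copy. It was at 48.0, 32.2 and 34.4 CPM in Tfap2a+/-, at 75.5, 67.8 and 53.9 CPM in the libraries labelled as Tfap2b+/- and at 32.0, 27.1 and 34.1 CPM in wild type. Every library labelled as Tfap2b+/- lay above all others, and Tfap2a+/- overlapped wild type. The group means were 38.2 ± 8.6, 65.8 ± 11.0 and 31.1 ± 3.6 CPM in Tfap2a+/-, in the libraries labelled as Tfap2b+/- and in wild type (SD, n = 3). Its log2 fold over wild type was 0.30 ± 0.18 in Tfap2a+/- and 1.08 ± 0.18 in the libraries labelled as Tfap2b+/-, and it was 0.78 ± 0.18 between the libraries labelled as Tfap2b+/- and Tfap2a+/-.

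The coding members did not separate the genotypes. Snrpn (ENSMUSG00000102252.5, chromosome 7, 59982495 to 60140219, minus strand), which encodes the spliceosomal protein SmN, was at 209, 218 and 228 CPM in Tfap2a+/-, at 223, 234 and 204 CPM in the libraries labelled as Tfap2b+/- and at 244, 212 and 241 CPM in wild type. Its log2 folds over wild type were -0.09 ± 0.09 and -0.07 ± 0.09. Of the 2159 exonic bases of Snrpn, 27.3% are shared with other genes on the same strand, where STAR leaves fragments unassigned. Snurf, read from the same transcript, shares all its 216 exonic bases and is listed at 0 in all 9 libraries.

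Ube3a (ENSMUSG00000025326.12, chromosome 7, 59228750 to 59311536, plus strand) encodes the ubiquitin ligase whose maternal loss causes Angelman syndrome in humans. It was at 215, 194 and 200.3 CPM in Tfap2a+/-, at 227, 202 and 219 CPM in the libraries labelled as Tfap2b+/- and at 198, 229.7 and 215 CPM in wild type. All groups overlapped, with log2 folds over wild type of -0.08 ± 0.09 in Tfap2a+/- and 0.01 ± 0.09 in the libraries labelled as Tfap2b+/-. Snrpn and Ube3a were the steadiest members: their highest library exceeded their lowest 1.20-fold and 1.18-fold.

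Ndn (ENSMUSG00000033585.5, chromosome 7, 62346569 to 62350262, plus strand) and Magel2 (ENSMUSG00000056972.6, chromosome 7, 62377010 to 62381640, plus strand) are neighbouring paternally expressed genes of the MAGE family, Ndn encoding the growth-suppressing protein necdin. Ndn was at 217, 160.3 and 113 CPM in Tfap2a+/-, at 231, 150.3 and 153 CPM in the libraries labelled as Tfap2b+/- and at 143, 201 and 172 CPM in wild type. Magel2 was at 10.1, 1.34 and 0.506 CPM in Tfap2a+/-, at 9.52, 3.13 and 2.07 CPM in the libraries labelled as Tfap2b+/- and at 0.798, 3.08 and 2.35 CPM in wild type. For both genes the 2 highest libraries were library 1 of each heterozygote. Magel2 rested on 11 to 294 counts per library, and its log2 folds of 0.94 ± 1.01 and 1.23 ± 1.01 over wild type were close to their SE. Without Tfap2a+/- library 1 the fold of Tfap2a+/- over wild type was -1.17. Without library 1 labelled as Tfap2b+/- the fold of that group over wild type was 0.32, and with the replicate number as a block it was 0.55.

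Peg3 (ENSMUSG00000002265.16, chromosome 7, 6703892 to 6730431, minus strand), a paternally expressed zinc finger gene, was at 634, 360.5 and 432 CPM in Tfap2a+/-, at 1042, 581 and 446 CPM in the libraries labelled as Tfap2b+/- and at 401, 411 and 545 CPM in wild type. The groups overlapped, and the log2 fold over wild type was 0.07 ± 0.32 in Tfap2a+/- and 0.61 ± 0.32 in the libraries labelled as Tfap2b+/-. Library 1 of each heterozygote again held the 2 highest values.

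Per exonic kilobase, the order of mean levels over the 9 libraries was Meg3 at 126.5 CPM per kb, Snrpn at 104, Ndn at 46.4, Peg3 at 40.5, Rian at 25.9, Ube3a at 10.2, Snhg14 at 4.64, Mirg at 1.96, Magel2 at 0.788 and Kcnq1ot1 at 0.484 CPM per kb. Meg3 and Snrpn overlapped within their spread in wild type, at 99.1 ± 30.3 and 107 ± 8 CPM per kb, as did Ndn and Peg3 at 46.6 ± 7.8 and 34.0 ± 6.0 CPM per kb. Magel2 and Kcnq1ot1, at 0.449 ± 0.252 and 0.334 ± 0.038 CPM per kb in wild type, were also within their spread (SD, n = 3).

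Set against all genes, the members' counts read as follows. In the libraries labelled as Tfap2b+/-, 5 of 5 noncoding members were higher than in wild type with a median log2 fold of 0.50, and 3 of 5 did not overlap wild type, against 8.84% of all genes that were higher and 7.63% that were lower without overlap. These values chose the members, so nothing is read from that count. Of the coding members 4 of 5 were higher, with a median of 0.05 and 0 without overlap. Over all 17355 genes 49.7% were higher, with a median of -0.00. Over all 1438 tested lincRNA, antisense and processed-transcript genes, 65.5% were higher with a median of 0.18, and 12.2% were higher without overlap, against 46.4%, -0.02 and 7.16% of protein-coding genes. The 1438 genes include the 5 noncoding members, and the protein-coding genes include the coding members. In Tfap2a+/- against wild type, 0 of 10 members were without overlap, beside 4.85% of all genes higher and 4.32% lower. Between the libraries labelled as Tfap2b+/- and Tfap2a+/-, 3 of 5 noncoding and 0 of 5 coding members were higher without overlap, beside 9.20% of all genes higher and 8.03% lower. The comparisons share libraries and are not independent of each other.

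A score per library, the mean over the members of log2(CPM + 0.5) less each gene's mean over the 9 libraries, put the noncoding members at -0.12 ± 0.11 in Tfap2a+/-, 0.36 ± 0.26 in the libraries labelled as Tfap2b+/- and -0.23 ± 0.27 in wild type (SD, n = 3). The 3 libraries labelled as Tfap2b+/- had the 3 highest noncoding scores, between 0.15 and 0.65, against at most -0.00 elsewhere. The coding score was -0.10 ± 0.51 in Tfap2a+/-, 0.20 ± 0.41 in the libraries labelled as Tfap2b+/- and -0.09 ± 0.23 in wild type, and the groups overlapped. The noncoding score less the coding score was -0.02 ± 0.56 in Tfap2a+/-, 0.16 ± 0.15 in the libraries labelled as Tfap2b+/- and -0.14 ± 0.46 in wild type. The difference of 0.30 between the libraries labelled as Tfap2b+/- and wild type was smaller than the SD of wild type, and the libraries overlapped.

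**Figure D2:**
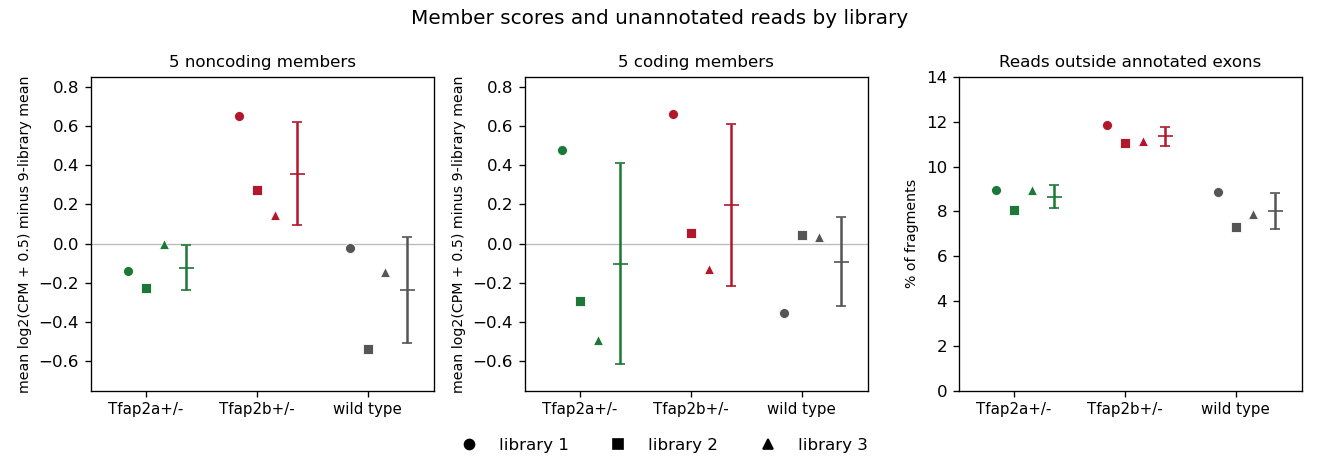
Mean score of the 5 noncoding and the 5 coding members, in log2 units relative to the mean of the 9 libraries, and the percentage of fragments that fell outside annotated exons on the sense strand. Points are libraries, bars the mean ± SD of 3, for Tfap2a+/-, the libraries labelled as Tfap2b+/- and wild type from left to right. The libraries labelled as Tfap2b+/- are highest in the noncoding score and in the share outside exons, while the coding scores overlap.

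Other measures moved with the noncoding score. Fragments outside annotated exons made up 8.66 ± 0.50% in Tfap2a+/-, 11.3 ± 0.4% in the libraries labelled as Tfap2b+/- and 8.01 ± 0.79% in wild type (SD, n = 3), without overlap between the libraries labelled as Tfap2b+/- and the rest. The summed level of the 4 nuclear RNAs Malat1, Neat1, Miat and Snhg11 was 2038 to 2723 CPM in Tfap2a+/-, 2818 to 3556 CPM in the libraries labelled as Tfap2b+/- and 1480 to 2475 CPM in wild type. Of these, Malat1 and Snhg11 were higher without overlap in the libraries labelled as Tfap2b+/- than in wild type, while Neat1 and Miat overlapped. Neat1 was at 115.9, 92.1 and 38.4 CPM in the libraries labelled as Tfap2b+/- against 54.9, 60.7 and 64.4 CPM in wild type. Library 1 labelled as Tfap2b+/- was the highest of the 9 libraries for 5 of 5 noncoding members and 2 of 5 coding members, as it was for 21.7% of all genes. Wild-type library 2 was the lowest for 5 of 5 noncoding members and 0 of 5 coding members, as it was for 14.9% of all genes. Without these 2 libraries and Tfap2a+/- library 1, the 3 with high choroid plexus or hindbrain markers, the log2 fold between the libraries labelled as Tfap2b+/- and wild type was 0.39 for Meg3, 0.01 for Rian, 0.06 for Mirg, 0.17 for Snhg14 and 0.89 for Kcnq1ot1, and that of Peg3 was 0.13. The libraries left out include the highest and the lowest library of every noncoding member, which by itself lowers the folds of these members. The smaller folds therefore say nothing about the markers. The part of nuclear RNA content and of brain region in the members' levels was not tested.

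The strand opposite to Ube3a was counted in a column that the selection of the members did not use. It is the strand of Snhg14, itself a member, so this measure is not independent of that selection. Snhg14 overlaps 1803 of the 20626 exonic bases of Ube3a, and fragments from the opposite strand over Ube3a exons were counted in the forward-strand column of the deposited tables. They stood at 36.2, 29.0 and 41.7 CPM in Tfap2a+/-, at 103, 68.2 and 63.7 CPM in the libraries labelled as Tfap2b+/- and at 33.9, 19.1 and 32.0 CPM in wild type. All 3 libraries labelled as Tfap2b+/- lay above all 6 others, and Tfap2a+/- overlapped wild type. The log2 fold over wild type was 1.47 ± 0.23 in the libraries labelled as Tfap2b+/- and was called (edgeR adjusted p = 0.046, higher in 3 of 3 libraries), as were 5 of 8137 genes (0.0614%) in that test. It was 0.33 in Tfap2a+/- (edgeR adjusted p = 0.997), where 0 of 8137 genes were called. Between the libraries labelled as Tfap2b+/- and Tfap2a+/- it was 1.14 ± 0.23 and missed the threshold (edgeR adjusted p = 0.17). The call rests on a narrow margin: leaving out any 1 library other than library 1 labelled as Tfap2b+/- ended it, while the log2 fold stayed between 1.23 and 1.61, and adjusted p over these fits ran from 0.042 to 0.26. Without the 3 libraries with high choroid plexus or hindbrain markers the log2 fold was 1.01 (edgeR adjusted p = 0.13). The highest and the lowest library of this measure were among those 3, while Tfap2a+/- library 2, high in striatal markers, stayed in. Part of these fragments can also be counted, on their own strand, in Snhg14, and all measures come from the same libraries.

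The share of stranded fragments at Ube3a exons that lay on the opposite strand was 14.4%, 13% and 17.2% in Tfap2a+/-, 31.2%, 25.2% and 22.5% in the libraries labelled as Tfap2b+/- and 14.6%, 7.69% and 12.97% in wild type. Over the 9 libraries together it was 18.7%, against a median of 0.594% for protein-coding genes. A share at least as high was found in 5.94% of protein-coding genes. Counting without regard to strand discards fragments where exons of both strands overlap, and adds opposite-strand fragments over the other exonic bases of Ube3a. The resulting count was 64.9% to 87.4% of the stranded Ube3a count per library. With those counts, which mix both strands, the log2 fold at Ube3a in the libraries labelled as Tfap2b+/- over wild type was 0.26, against 0.01 with strand.

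**Figure D3:**
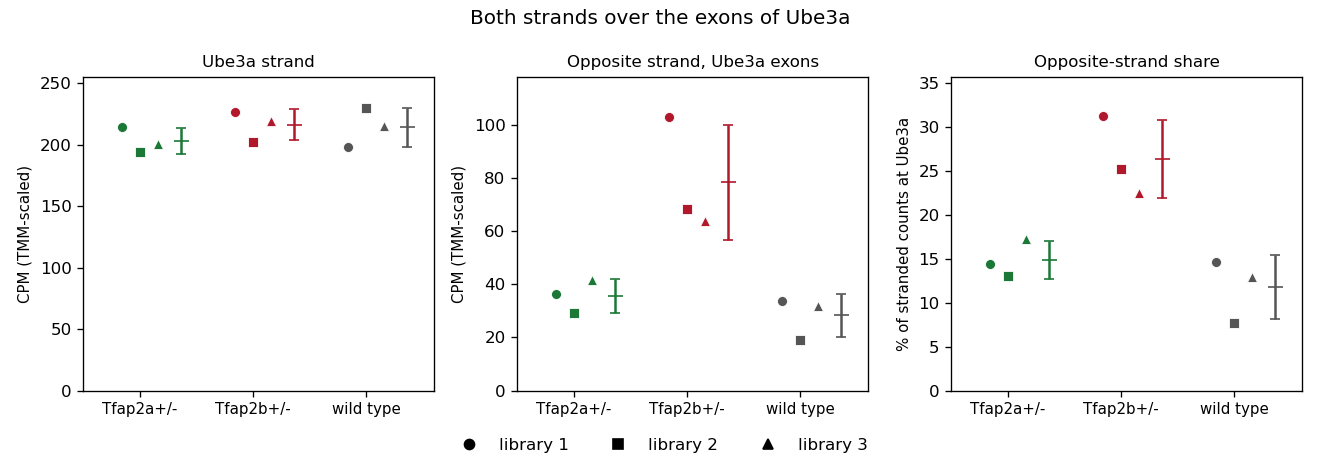
Levels in TMM-scaled CPM on the strand of Ube3a and on the opposite strand over its exons, and the opposite-strand share in percent, with axes that start at 0. Points are libraries, bars the mean ± SD of 3, for Tfap2a+/-, the libraries labelled as Tfap2b+/- and wild type from left to right. The Ube3a strand overlaps in all groups, while the opposite strand reaches 63.7 to 103 CPM in the libraries labelled as Tfap2b+/-, above all others.

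Besides Snhg14, GENCODE M21 places 4 unclassified transcripts on the minus strand that overlap the span of Ube3a, 9330162G02Rik, Gm44559, Gm44560 and Gm44562. Of these, 9330162G02Rik also extends beyond the start of Ube3a. The longest, 9330162G02Rik, was at 57.7, 51.9 and 63.6 CPM in Tfap2a+/-, at 137, 78.9 and 65.4 CPM in the libraries labelled as Tfap2b+/- and at 56.6, 32.0 and 53.0 CPM in wild type (a log2 fold of 0.99 ± 0.29 for the libraries labelled as Tfap2b+/- over wild type, with an edgeR adjusted p = 0.37). Gm44560 was at 8.55, 6.19 and 8.28 CPM in Tfap2a+/-, at 23.4, 14.6 and 14.1 CPM in the libraries labelled as Tfap2b+/- and at 6.19, 3.61 and 6.33 CPM in wild type (a log2 fold of 1.69 ± 0.27, with an edgeR adjusted p = 0.20). All 4 were higher without overlap in the libraries labelled as Tfap2b+/- than in wild type, against 8.84% of all genes, and 0 of 4 were called. They lie on the strand of Snhg14, had the same highest and lowest library and were named after their values were seen. They are therefore not 4 independent genes, and nothing is read from that count. Gm44562 was also higher without overlap in Tfap2a+/-, at 3.39, 3.12 and 4.00 CPM against 2.35, 1.35 and 2.70 CPM in wild type. Gm44560 and 9330162G02Rik overlap 2025 and 1796 exonic bases of Ube3a, so their counts can hold part of the opposite-strand fragments given above.

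The coding and noncoding neighbours of the members, from lists of 4 loci, included 40 genes that passed the filter of 51 found. None was called in edgeR in any of the 3 comparisons, in which 0 of 17355 genes (0%) passed. At an unadjusted p under 0.05, 2 of the 40 passed in Tfap2a+/- against wild type, 6 in the libraries labelled as Tfap2b+/- against wild type and 4 between the heterozygotes, beside 666, 1841 and 1997 of all genes. At the Dlk1-Meg3 locus, Dlk1, which encodes a Notch-related membrane protein, was at 56.1, 10.0 and 1.66 CPM in Tfap2a+/-, at 50.4, 4.81 and 6.86 CPM in the libraries labelled as Tfap2b+/- and at 3.57, 19.7 and 8.99 CPM in wild type. It thus varied more within genotypes than between them and did not follow Meg3. At the Snrpn-Ube3a locus, Gabra5, which encodes a GABA-A receptor subunit and lies beyond Ube3a, was at 44.0, 51.3 and 39.9 CPM in Tfap2a+/- against 64.5, 96.6 and 87.2 CPM in wild type (a log2 fold of -0.88, with an edgeR adjusted p = 0.73). At the Kcnq1 locus, Cdkn1c, a cell-cycle inhibitor gene that Kcnq1ot1 is known to silence in mouse, was at 5.47, 5.72 and 8.67 CPM in the libraries labelled as Tfap2b+/- against 8.35, 15.5 and 5.75 CPM in wild type, with overlap (a log2 fold of -0.58, with an edgeR adjusted p = 0.55). Kcnq1, the potassium channel gene that Kcnq1ot1 runs through, was at 0.529, 0.505 and 1.36 CPM in the libraries labelled as Tfap2b+/- against 0.610, 0.526 and 0.540 CPM in wild type. Th, the tyrosine hydroxylase gene, was at 11.6, 1.28 and 17.6 CPM in the libraries labelled as Tfap2b+/- against 1.08, 0.865 and 0.810 CPM in wild type (a log2 fold of 3.46, with an edgeR adjusted p = 0.35). At the Peg3 locus, Usp29, which shares its start region with Peg3, was at 114, 64.7 and 61.4 CPM in Tfap2a+/-, at 171, 76.0 and 63.0 CPM in the libraries labelled as Tfap2b+/- and at 61.6, 82.8 and 86.2 CPM in wild type, so its 2 highest libraries were those of Peg3.

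**Figure D4:**
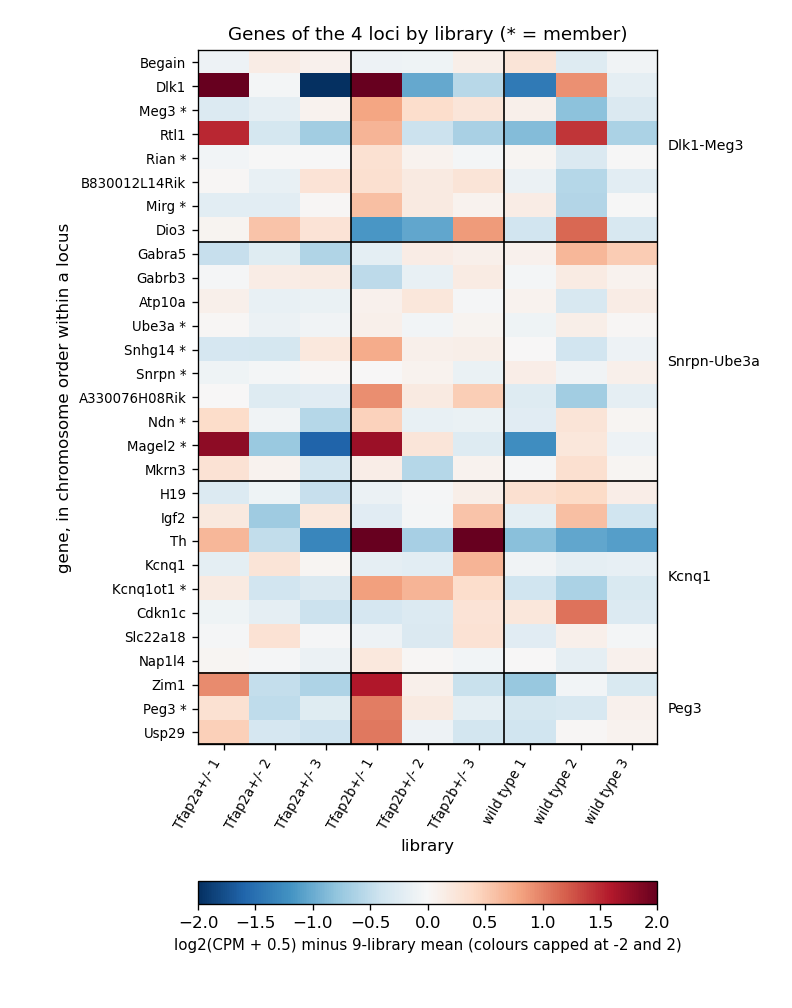
Members (starred) and neighbours of the 4 loci in each library, as log2(CPM + 0.5) less the mean of the 9 libraries, with colours capped at -2 and 2. Columns are libraries of Tfap2a+/-, labelled as Tfap2b+/- and wild type from left to right, and rows run in chromosome order within a locus. Library 1 of each heterozygote is red for Dlk1, Magel2, Zim1, Peg3 and Usp29, while Meg3, Mirg, Snhg14 and Kcnq1ot1 are reddest in library 1 labelled as Tfap2b+/- and bluest in wild-type library 2.

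Other imprinted genes, in the 4 loci and elsewhere in the genome, were listed as 10 noncoding and 49 coding genes. Some of them are neighbours named above, and 51 of 56 found passed the filter. None was called in edgeR in any comparison, and the smallest adjusted p was 0.29. Of the 5 noncoding genes tested, 4 were higher in the libraries labelled as Tfap2b+/- than in wild type with a median log2 fold of 0.79, and 3 were higher without overlap, against 8.84% of all genes. The 3 were A330076H08Rik, B830012L14Rik and Airn. A330076H08Rik, B830012L14Rik and H19 lie at the members' own loci, and only Airn and Peg13 lie elsewhere. B830012L14Rik, between Rian and Mirg, was at 0.494, 0.404 and 0.452 CPM in the libraries labelled as Tfap2b+/- against 0.235, 0.0376 and 0.193 CPM in wild type. Its log2 fold was 1.54 ± 0.54 (edgeR adjusted p = 0.43). H19, the only gene of the 5 that was lower, was at 0.247, 0.303 and 0.377 CPM in the libraries labelled as Tfap2b+/- against 0.516, 0.564 and 0.386 CPM in wild type. Its log2 fold was -0.66 ± 0.40 (edgeR adjusted p = 0.56). The groups of H19 missed overlap only narrowly, at 0.377 against 0.386 CPM, beside 7.63% of all genes that were lower without overlap. A330076H08Rik, a noncoding gene of the Snrpn-Ube3a region, was at 7.80, 6.41 and 6.54 CPM in Tfap2a+/-, at 15.1, 8.79 and 11.0 CPM in the libraries labelled as Tfap2b+/- and at 6.38, 4.59 and 6.79 CPM in wild type (a log2 fold of 0.98 ± 0.22 for the libraries labelled as Tfap2b+/- over wild type, with an edgeR adjusted p = 0.29). Airn, the antisense RNA of the Igf2r locus, was at 2.33, 1.31 and 1.58 CPM in the libraries labelled as Tfap2b+/- against 0.751, 1.17 and 1.08 CPM in wild type (a log2 fold of 0.79 ± 0.32, with an edgeR adjusted p = 0.46). Peg13, the most abundant of the 5, overlapped, at 502, 434 and 349 CPM in the libraries labelled as Tfap2b+/- against 432, 323 and 465 CPM in wild type. H19 was also lower without overlap in Tfap2a+/-, at 0.171, 0.267 and 0.0921 CPM against the same wild-type values (a log2 fold of -1.44 ± 0.43, with an edgeR adjusted p = 0.999), close to the level of 3 counts, 0.103 to 0.137 CPM before scaling. Of the 46 coding genes tested, 27 were higher and 19 lower in the libraries labelled as Tfap2b+/- than in wild type, with a median log2 fold of 0.06.

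Some coding members shared a pattern over the libraries with some other imprinted coding genes, and its source was not tested. Tfap2a+/- library 1 and library 1 labelled as Tfap2b+/- were the 2 highest of the 9 libraries for 3 of 5 coding members (Ndn, Magel2 and Peg3), for 0 of 5 noncoding members and for 12 of 46 other imprinted coding genes (26.1%), among them Dlk1, Usp29, Zim1, Grb10, Ddc and Peg10. The same held for 4.12% of all genes. These counts were made after the members' values were seen. The summed hypothalamic markers, of which 5 of 12 passed the filter and Kiss1 was at 0 throughout, were 13 and 13.9 CPM in these 2 libraries and 4.19 to 21.2 CPM in the others.

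The genes whose pattern over the 9 libraries lay nearest to that of Meg3 were AI480526, Gm37893, Mir124-2hg, Snhg11 and Cd46, at a root mean square difference of 0.08 to 0.14 in centred log2(CPM + 0.5), against a median of 0.47 for all genes tested. AI480526, a lincRNA gene on chromosome 5, was at 19.1, 19.2 and 23.6 CPM in Tfap2a+/-, at 35.4, 31.1 and 27.4 CPM in the libraries labelled as Tfap2b+/- and at 25.5, 13.99 and 19.02 CPM in wild type. Mir124-2hg, a host gene of the neuronal miRNA miR-124, was at 41.0, 47.9 and 45.5 CPM in Tfap2a+/-, at 76.1, 58.9 and 58.1 CPM in the libraries labelled as Tfap2b+/- and at 47.7, 27.8 and 43.0 CPM in wild type. Nearest to Kcnq1ot1 lay Gm42447, Ppp3r2, Gm37206, Gm44586 and Gm45176, at 0.13 to 0.17 against a median of 0.53. Gm37206 was at 4.34, 2.98 and 3.96 CPM in Tfap2a+/-, at 6.63, 5.56 and 6.29 CPM in the libraries labelled as Tfap2b+/- and at 2.96, 2.41 and 2.89 CPM in wild type, and the other 4 were at 1.13 CPM or less in every library. Among the members themselves, Meg3 lay nearest to Mirg at 0.16 and to Snhg14 at 0.20, and farther from its own neighbour Rian at 0.31. The points of these measures are libraries of 3 genotypes that share depth and tissue, so they describe likeness only.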

How the data were processed

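The authors deposited whole-number counts per gene for each library, in STAR's layout with unstranded, forward-strand and reverse-strand columns. The build GRCm38.p6 and the tools STAR 2.6.1d, cutadapt 2.4 and edgeR are recorded in the submitters' processing notes. Which annotation was counted is not given in the sources used. Gene symbols and coordinates came from GENCODE M21 (54409 of 54446 identifiers matched, 37 did not). Reverse-strand counts were used because the dUTP kit of the labels' protocols makes them the sense strand, and forward-strand counts were 4.16% to 4.94% of stranded counts. Reads at several positions (5.33% to 6.20%), outside exons (7.30% to 11.8%), ambiguous (1.10% to 1.21%) or unmapped (1.21% to 1.74%) stayed out of library sizes. No 2 libraries of a genotype agreed within sampling noise (smallest chi-square per degree of freedom 20.6). Floors of 3 counts cover counting error only.

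edgeR 4.0.16 in R 4.3.3 was run on all 9 libraries with TMM scaling, filterByExpr (17355 genes, 8137 for forward-strand counts) and the quasi-likelihood test, with Benjamini-Hochberg adjusted p under 0.05 called. The test was tried on simulated counts with known changes. DESeq2 1.42.0, its size factors, other filters, unstranded counts, the replicate block, only 2 genotypes, and single libraries left out were the alternatives. The members, lists, the naming rule (all members, the genes of the 4 locus lists, 5 imprinted genes of smallest p per comparison and the 5 genes most like Meg3 and Kcnq1ot1) and the 3 libraries high in choroid plexus or hindbrain markers were chosen with earlier results of these data known. The 4 transcripts opposite to Ube3a, Peg13, Ddc and Peg10 were named after their values were seen. Sequences are from RefSeq.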

Additional observations from a re-analysis of the deposited data

How the results depend on the processing

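In edgeR 0 genes were called in each comparison. DESeq2 called 30 genes in Tfap2a+/- against wild type, 151 in the libraries labelled as Tfap2b+/- against wild type and 207 between the heterozygotes, and with DESeq2 1 other imprinted gene, A330076H08Rik, was called in the libraries labelled as Tfap2b+/- against wild type. Without a filter on low counts edgeR called 2 genes in Tfap2a+/- against wild type and 7 between the heterozygotes. Leaving out single libraries gave 0 to 3 genes in Tfap2a+/- against wild type, 0 to 4 in the libraries labelled as Tfap2b+/- against wild type and 0 to 31 between the heterozygotes. Leaving out the 3 libraries with high choroid plexus or hindbrain markers gave 2 in the libraries labelled as Tfap2b+/- against wild type and 1 between the heterozygotes. For the strand opposite to Ube3a, the call in the libraries labelled as Tfap2b+/- against wild type was lost with a filter at 1 CPM in 3 libraries (log2 fold 1.47, edgeR adjusted p = 0.087), with only those 2 genotypes (1.47, edgeR adjusted p = 0.13) and without the 3 marker-high libraries (1.01, edgeR adjusted p = 0.13). Without single libraries it ran from 1.23 to 1.61, and it was called in 5 of 16 alternatives, at adjusted p from 7.1e-21 to 0.26. Against Tfap2a+/- the same fold was called with DESeq2 (1.12, adjusted p = 0.0033) and without a filter in edgeR (1.14, adjusted p = 2.3e-12) and without library 3 labelled as Tfap2b+/- (1.26, edgeR adjusted p = 0.041), 3 of 16 alternatives, and ran from 0.89 to 1.26 without single libraries. The cause of these changes was not tested. Without a filter, edgeR called 50 genes on forward-strand counts in Tfap2a+/- against wild type, where the main fit called 0. Calls and adjusted p under that setting therefore carry little weight. Replicate numbers did not pair the libraries (correlations of same-numbered libraries from -0.35 to 0.34). With the replicate block 0 genes were called in each comparison, and the opposite-strand fold at Ube3a over wild type was 1.49 in the libraries labelled as Tfap2b+/- (edgeR adjusted p = 0.023). Of 510 member folds under alternatives, 498 moved by less than 1 SD of the libraries and 12 by more. At this depth Magel2, with 11 to 294 counts, and H19 are the least precise of the genes named.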
